A study of Mus musculus with 6 samples.

Results

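Small nucleolar RNA host transcripts are long noncoding RNAs whose introns hold small nucleolar RNAs (snoRNAs). The 8 hosts described here are Zfas1, Snhg1, Snhg4, Snhg6, Snhg7, Snhg8, Snhg12 and Gas5, of 18194 genes that the array measures by a probe set with 1 gene symbol. Every probe set whose only annotated symbol was one of these names was taken, which gave 15 probe sets, and each was read separately. The hosts were selected on their IP against unbound differences, the contrast described below. Their values in it are therefore a description, and no p-value is given for them.

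The study measured RNA on Affymetrix mouse arrays after translating ribosome affinity purification (TRAP), which pulls tagged ribosomes and the RNA bound to them out of a tissue lysate. All mice carried the Slc6a4 JD60 bacterial artificial chromosome transgene, which is directed to serotonin neurons by Slc6a4 (serotonin transporter) regulatory sequence, on a mixed FVB and c57/bl6j background. Adults of both sexes, aged 6 to 12 weeks, gave midbrain and brainstem with the cerebellum removed, and 5 mice were pooled for each replicate. The 3 IP samples hold the RNA pulled down with the tagged ribosomes. The 3 unbound samples hold what stayed in the lysate of the same replicates and serve as total tissue RNA. Every sample was amplified from 20 ng of RNA in 2 cycles and labelled with biotin. Since unbound RNA comes from all cell types and is not selected for ribosome binding, cell type and ribosome association cannot be told apart in any difference below. Likewise, fewer cells of a type and less RNA per cell cannot be told apart in these pooled tissues.

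A snoRNA guides the chemical modification of other RNAs, mainly ribosomal RNA. Box C/D snoRNAs direct ribose methylation and box H/ACA snoRNAs direct pseudouridylation. Most mammalian snoRNAs are cut out of the introns of a host gene after splicing, while the joined exons leave as a separate transcript. The exonic RNA of several hosts, Gas5 among them, reaches the cytoplasm, is bound by ribosomes over short reading frames and is degraded by nonsense-mediated decay. Several of these genes start transcription in a run of pyrimidines, the terminal oligopyrimidine (TOP) feature known from ribosomal protein genes.

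The RefSeq annotation of assembly GRCm38.p6 lists all 8 as long noncoding RNAs and places snoRNA genes inside each of them. Gas5 and Snhg1 each hold 8, Snhg12 holds 4, Zfas1 holds 3 and Snhg7 holds 2. Snhg4, Snhg6 and Snhg8 hold 1 each. By the named genes, Snord12 lies in Zfas1, Snord22 in Snhg1, Snord47 in Gas5 and Snord87 in Snhg6, all of the box C/D class. Snhg4 holds Snora74a, Snhg7 holds Snora17 and Snora43, and Snhg8 holds Snora24, all of the box H/ACA class. Snhg12 holds both classes, with Snora16a, Snora44, Snora61 and Snord99. The genes are short, with spans of 785 bases for Snhg8 to 4907 bases for Snhg4.

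The bases around the annotated start of transcription are shown for 6 hosts, because the start is where the TOP feature of these genes would lie. RefSeq promoter windows matched 6 of the 8 genes by symbol, all but Snhg4 and Snhg6. Each line gives 50 bases before the start and 30 from it, on the gene's own strand in GRCm38.p6, and capitals mark the unbroken run of C and T that holds the start base.
Gas5 (chr1:161035116-161035195, plus strand): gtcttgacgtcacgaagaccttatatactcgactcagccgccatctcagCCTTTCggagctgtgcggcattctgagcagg
Snhg7 (chr2:26640215-26640294, minus strand): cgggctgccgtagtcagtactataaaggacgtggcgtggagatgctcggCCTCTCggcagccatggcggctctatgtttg
Snhg8 (chr3:123508307-123508386, minus strand): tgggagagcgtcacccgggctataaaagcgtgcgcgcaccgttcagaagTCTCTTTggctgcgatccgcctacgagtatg
Snhg12 (chr4:132308628-132308707, plus strand): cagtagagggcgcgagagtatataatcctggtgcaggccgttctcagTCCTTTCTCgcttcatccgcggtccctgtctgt
Snhg1 (chr19:8723437-8723516, plus strand): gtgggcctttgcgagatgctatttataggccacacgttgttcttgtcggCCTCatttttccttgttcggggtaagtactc
Zfas1 (chr2:167062884-167062963, plus strand): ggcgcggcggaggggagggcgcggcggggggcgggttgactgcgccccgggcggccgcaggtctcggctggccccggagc

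The pyrimidine run over the start was 9 bases long in Snhg12, 7 in Snhg8, 6 in Snhg7, 6 at this start of Gas5 and 4 in Snhg1. Zfas1 had a purine at its annotated start, as had a second annotated start of Gas5 that is not shown. A run of at least 5 was found in 4 of the 7 host windows and in 10.1% of all 32851 RefSeq windows. In Gas5 and Snhg7 that run began with C within 5 bases of the start, which held for 5.02% of all windows. The letters TATA, which read the same on both strands, lay 40 to 20 bases before the start in 5 of the 7 host windows and in 5.34% of all windows. This second search was chosen after the sequences had been read. Gas5, Snhg7, Snhg8 and Snhg12 had both features, as had 0.508% of all windows. These are matches of letters, and annotated starts need not be the starts used in these neurons.

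Values below are log2 probe set values, with the IP arrays shifted by -0.23 to match the biotinylated hybridisation controls of the unbound arrays. A log2 value of 5 is called the detection limit, and a probe set was tested where at least 3 of the 6 arrays reached it. Across the 18483 probe sets tested, 1970 (10.7%) were called higher in IP and 8034 (43.5%) lower, where a call needs an adjusted p under 0.05 (limma with Benjamini-Hochberg adjustment) and a change of 2-fold or more. The labels held: Slc6a4 averaged 14.20 ± 0.12 on the IP arrays and 9.05 ± 0.07 on the unbound arrays (SD, n = 3 each), and Tph2, the enzyme of neuronal serotonin synthesis, was 56.1-fold higher in IP (limma, adjusted p = 5.55e-07). All 7 serotonin neuron markers measured were called higher. The 3 glial marker lists moved the other way, with 7 of 7 astrocyte, 6 of 6 oligodendrocyte and 5 of 5 tested microglial genes called lower. On the linear scale, the summed astrocyte markers lay between 3030 and 3420 in IP, against 20000 to 29100 in unbound RNA. The sum of oligodendrocyte markers ranged over 16300 to 24400 in IP, against 71800 to 83100 in unbound RNA. That of the 6 microglial markers on the array ranged over 135 to 137 in IP, against 1540 to 1750 in unbound RNA. Slc1a3, Aldh1l1, Sox9, Olig2, Cx3cr1, C1qa, P2ry12 and Tmem119 were below the detection limit on every IP array. All of these but P2ry12 were tested, and they passed the filter only through the unbound arrays. Their lower direction was therefore fixed in advance, and their calls are no check of the labels. The part of these cell types in the host values was not tested.

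Read by its brightest probe set, each of the 8 hosts had a higher mean in IP than in unbound RNA, and in each of them IP exceeded unbound in all 3 replicate pairs. The differences ran from 0.32 for Snhg1 to 3.49 for Zfas1 on the log2 scale, with a median of 1.93. The median over all genes tested was -0.65. Of all 15 host probe sets, 12 were tested, 9 were called higher and 1 lower, against 10.7% and 43.5% of all probe sets tested. The lower one, Gas5 1436222_at, was below the detection limit on every IP array. It passed the filter only through the unbound arrays, so its direction was fixed in advance. Among the 15, all 3 IP arrays lay above all 3 unbound arrays for 10 probe sets and below them for 4. The shares among probe sets tested were 23.4% and 59.8%. These shares leave out untested probe sets, whereas the 4 include the 3 untested host probe sets, which were below the detection limit on all 6 arrays. The median difference over all 15 was 1.18, and it was 1.13, 1.21 and 1.30 in replicate pairs 1, 2 and 3.

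**Figure D1:**
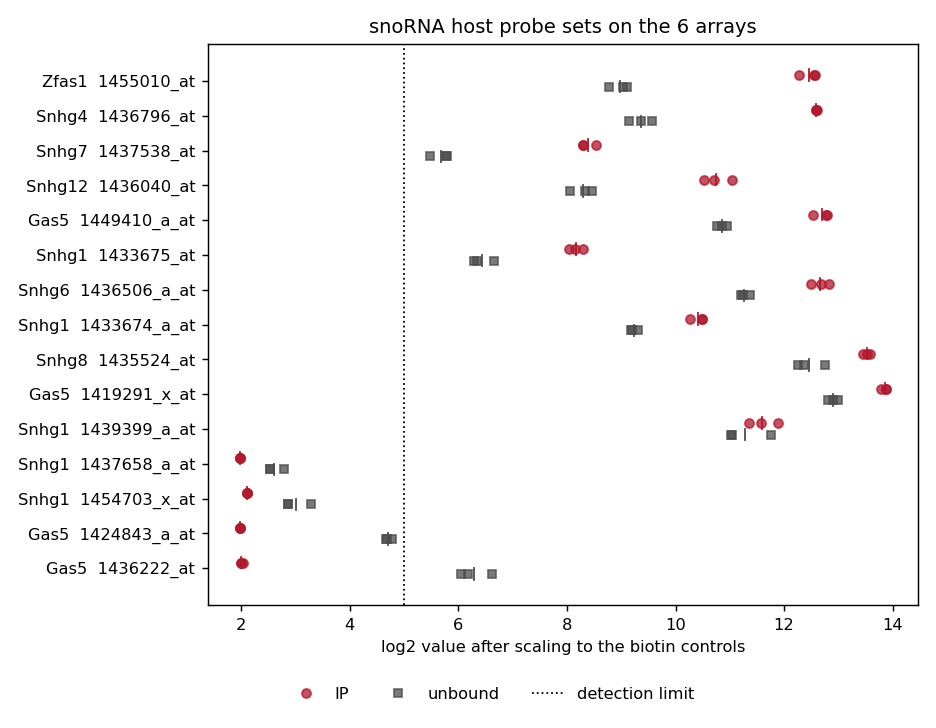
Log2 values of the 15 host probe sets (rows, ordered by their difference) on the 3 IP arrays (circles) and the 3 unbound arrays (squares), with short lines at the group means and a dotted line at the detection limit of 5. For Zfas1 the IP arrays lie between 12.27 and 12.57 and the unbound arrays between 8.78 and 9.10, while only Snhg1 1439399_a_at has overlapping groups.

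Among hosts of box C/D snoRNAs, Zfas1 was the furthest above unbound in IP. Zfas1 is transcribed from the opposite strand at the start of Znfx1. It read 12.27, 12.55 and 12.57 in the 3 IP samples and 8.78, 9.10 and 9.04 in the 3 unbound samples. No array of one fraction came near the other, and the 3 pairs differed by 3.48, 3.45 and 3.53. The means of 12.46 ± 0.17 on the IP arrays and 8.98 ± 0.17 on the unbound arrays (SD, n = 3 each) are 11.2-fold apart, and 0.552% of all probe sets tested had a larger difference.

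Snhg6, the host of Snord87, was bright in both fractions. It read 12.50, 12.68 and 12.82 in IP and 11.38, 11.24 and 11.21 in unbound RNA. The groups did not overlap, the pairs differed by 1.13, 1.44 and 1.61, and the mean difference of 1.39 is 2.63-fold.

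Gas5, named for its rise in growth-arrested cells, was read by 4 probe sets that did not point one way. On the brightest, 1419291_x_at, IP samples read 13.79, 13.88 and 13.88 and unbound samples 12.99, 12.81 and 12.91. This difference of 0.95, or 1.93-fold, stayed just under 2-fold, and the groups did not overlap. The suffix x marks probe sets with probes that also match other sequences, so this value is uncertain. The probe set 1449410_a_at, whose suffix a marks transcripts of a single gene, read 12.54, 12.79 and 12.78 in IP and 10.85, 10.77 and 10.94 in unbound RNA. It was 3.60-fold higher in IP, a difference of 1.85.

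The other two Gas5 probe sets were lower in IP. 1436222_at read 2.03, 1.99 and 1.99 in IP, below the detection limit and near the lowest value of these arrays, against 6.62, 6.05 and 6.18 in unbound RNA. Set against the limit instead of the dim IP values, it was at least 2.44-fold lower in IP. 1424843_a_at read 1.98 on all 3 IP arrays and 4.78, 4.68 and 4.66 on the unbound arrays. Since both groups were below the limit, no fold is given for it and it was not tested. The highest and lowest differences of Gas5 probe sets, 1.85 and -4.28, lay 6.13 apart on the log2 scale. Which exons or introns each probe set covers was not analysed here.

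Snhg1, which holds as many snoRNA genes as Gas5, was read by 5 probe sets. On the brightest, 1439399_a_at, IP samples read 11.88, 11.35 and 11.57 and unbound samples 11.75, 11.04 and 11.03. Here unbound replicate 1 lay above IP replicates 2 and 3, and this was the only host probe set whose groups overlapped. Replicate 1 was the highest of its group in both fractions, and the pairs differed by 0.13, 0.30 and 0.54.

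Other probe sets of Snhg1 were further apart. 1433674_a_at read 10.48, 10.27 and 10.48 in IP and 9.19, 9.30 and 9.18 in unbound RNA, a difference of 1.18 or 2.27-fold. 1433675_at read 8.30, 8.04 and 8.15 in IP and 6.66, 6.34 and 6.29 in unbound RNA, a difference of 1.74 or 3.34-fold. Neither of them had overlapping groups, and their target sequence has the same accession in the annotation. The remaining 1437658_a_at and 1454703_x_at were below the detection limit on all 6 arrays, with 1.98 to 2.11 in IP against 2.53 to 3.29 in unbound RNA, and were not tested. Both had the same value on every IP array.

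Hosts of box H/ACA snoRNAs had 1 probe set each, with differences of 1.07 to 3.23. Snhg4, the host of Snora74a, read 12.58, 12.59 and 12.60 in IP and 9.15, 9.36 and 9.57 in unbound RNA. Its IP arrays were the closest of any tested host probe set (SD 0.01), the unbound arrays were more spread (SD 0.21), and the groups were 9.39-fold apart. Snhg7, the host of Snora17 and Snora43, read 8.30, 8.30 and 8.54 in IP and 5.77, 5.79 and 5.47 in unbound RNA. Its unbound values lay not far above the detection limit, and its difference of 2.70 is 6.51-fold.

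Snhg8, the shortest of the genes, read 13.59, 13.45 and 13.52 in IP and 12.75, 12.25 and 12.36 in unbound RNA. Its groups did not overlap, although the difference of 1.07, or 2.10-fold, was close to the 2-fold needed for a call. It dropped to 0.97, without a call, when unbound replicate 2 was left out.

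Snhg12, which holds snoRNAs of both classes, read 10.52, 10.70 and 11.04 in IP and 8.06, 8.46 and 8.34 in unbound RNA. The lowest IP array was well above the highest unbound array, and the pairs differed by 2.46, 2.24 and 2.70. The mean difference of 2.46 is 5.52-fold.

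Ordered by the difference of the brightest probe set, the hosts were Zfas1 (3.49), Snhg4 (3.23), Snhg7 (2.70), Snhg12 (2.46), Snhg6 (1.39), Snhg8 (1.07), Gas5 (0.95) and Snhg1 (0.32). Since equal replicate numbers share mice, neighbours in this order were compared within the 3 pairs. The difference of Snhg4 exceeded that of Snhg7 by 0.53 ± 0.50 (SD over 3 pairs) and was below it in pair 3, by -0.04, so their order is not beyond the spread. The other neighbours kept their order in every pair, but the order itself was set from these pairs, and some steps were small. Zfas1 exceeded Snhg4 by 0.05 to 0.49 (mean 0.26, SD 0.22) and Snhg7 exceeded Snhg12 by 0.07 to 0.37 (mean 0.24, SD 0.15). Snhg8 exceeded Gas5 by 0.04 to 0.19 (mean 0.12, SD 0.08). Snhg6 exceeded Snhg8 by 0.23 to 0.45, Gas5 exceeded Snhg1 by 0.44 to 0.77, and the widest step was that of Snhg12 over Snhg6, by 0.80 to 1.33. The places of Gas5 and Snhg1 depend on the probe set. Gas5 1449410_a_at, at 1.85, would stand above Snhg6, and Snhg1 1433674_a_at (1.18) and 1433675_at (1.74) above Gas5 1419291_x_at (0.95). By snoRNA content, Zfas1 with 3 snoRNA genes and Snhg4 with 1 stood first, and Gas5 and Snhg1 with 8 each stood last. Between them, Snhg6 and Snhg8 with 1 each stood below Snhg7 with 2 and Snhg12 with 4. A relation of the difference to snoRNA number was not tested.

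**Figure D2:**
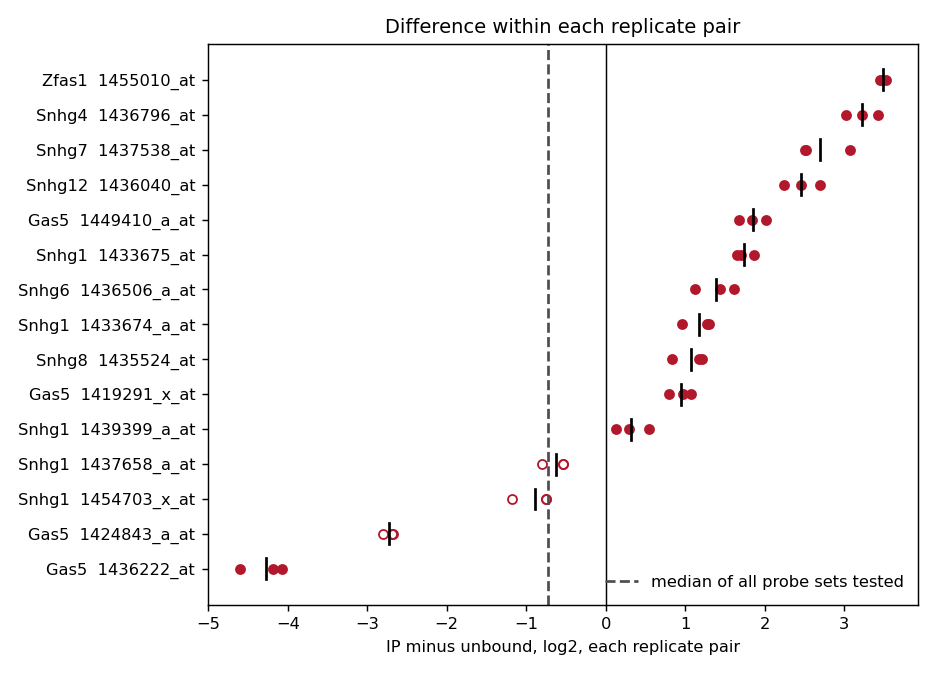
IP minus unbound log2 difference of each host probe set in the 3 replicate pairs (circles, open where the probe set was not tested), with the mean as a short line and the median of all probe sets tested, -0.73, as a dashed line. All but 4 rows lie above 0 in every pair, from Zfas1 at 3.45 to 3.53 down to Snhg1 1439399_a_at at 0.13 to 0.54, and the 4 lowest rows are probe sets of Snhg1 and Gas5.

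The authors normalised IP and unbound arrays separately, so the sign of a difference depends on how the groups are set against each other. Under the biotin scaling, without scaling, under quantile normalisation and with arrays centred on either median, all 8 hosts were above 0 by their brightest probe set. Under the scaling to the poly-A spike controls, which lowers IP by 2.59 and puts the median of all probe sets tested at -3.15, Zfas1 (1.13), Snhg4 (0.87), Snhg7 (0.34) and Snhg12 (0.11) were above 0. Snhg6 (-0.96), Snhg8 (-1.29), Gas5 (-1.41) and Snhg1 (-2.04) were then below 0. The median of all probe sets tested ran from -3.15 to 0.37. That of the 15 host probe sets was higher under each of these scalings, by 1.38 to 1.98. Since the hosts were selected on this contrast, a median above the background was fixed in advance. All of these scalings but the quantile one differ only by shifts of whole arrays. Such shifts move hosts and background alike, so the scalings are no separate checks of this gap. Gas5 1436222_at was below 0 under each scaling, at -6.64 to -3.26.

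**Figure D3:**
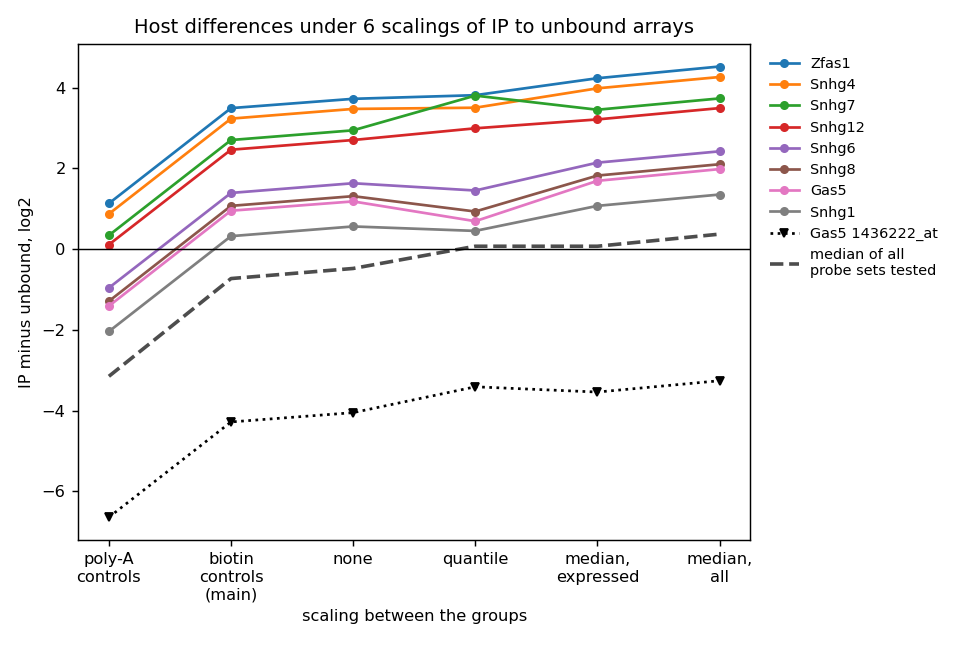
IP minus unbound log2 difference (vertical axis) of each host's brightest probe set, of Gas5 1436222_at (dotted) and the median of all probe sets tested (dashed) under 6 scalings between the groups (horizontal axis). The 8 hosts, which were selected on this contrast, lie above the dashed line under every scaling drawn. Snhg6, Snhg8, Gas5 and Snhg1 lie below 0 with the poly-A controls, at -0.96 to -2.04.

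Other noncoding snoRNA hosts were divided. Of 15 listed, 10 had a probe set with 1 gene symbol and 8 were tested. Of these, 3 were called higher and 4 lower, with a median difference of -1.82. Among the 10580 genes tested by their brightest probe set, 10.4% were higher and 41.1% lower. Snhg14, the long imprinted transcript of the Prader-Willi region, averaged 8.27 ± 0.17 on the IP arrays and 12.37 ± 0.72 on the unbound arrays (SD, n = 3 each) and fell by 4.09 (limma, adjusted p = 1.15e-04). Rian, the imprinted host of a box C/D snoRNA cluster, fell by 3.59 (limma, adjusted p = 7.51e-07), and Snhg11 fell by 3.40 (limma, adjusted p = 1.08e-04). Snhg18 was the fourth lower gene. It was below the detection limit on all IP arrays and passed the filter only through the unbound arrays, which fixed its direction.

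The 3 higher ones, named after their values were seen along with Snhg18, were Snhg10 (2.01), Snhg16 (1.78) and Dancr (1.48). Snhg10 read 13.68, 13.95 and 14.00 in IP and 12.05, 11.83 and 11.72 in unbound RNA, and its other probe sets differed by 0.70 and 2.94. Snhg16 was below the limit in unbound RNA and was at least 2.24-fold higher in IP. It passed the filter only through the IP arrays, so its higher direction was fixed in advance. Snhg5 was not called, at -0.58, and Snhg3 and Snhg17 were below the limit on all arrays. With quantile normalisation 3 were higher and 3 lower, and with the poly-A controls 0 and 5.

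Protein-coding snoRNA hosts, mostly ribosomal protein and translation factor genes, were mostly not called. Of 44 listed, 28 had a probe set with 1 gene symbol and 26 were tested. Of these, 2 were called higher, 3 lower and 21 were not called, with a median of 0.32. Over all genes tested, 10.4% were higher and 41.1% lower, with a median of -0.65. Rpl37, of the large ribosomal subunit, averaged 11.17 ± 0.08 on the IP arrays and 9.37 ± 0.16 on the unbound arrays (SD, n = 3 each), a rise of 1.80 (limma, adjusted p = 2.04e-05), though its probe set also has the suffix x. Cwf19l1 fell by 1.54 and Wdr43, a ribosome assembly factor, by 1.38 (limma, adjusted p = 2.07e-05 and 9.21e-04). Rpl4 (1.06) was the other higher gene and Ipo7 (-1.04) the other lower one. The balance depends on the scaling: 19 were higher and 0 lower when each array was centred on the median of its whole probe set content, and 0 and 25 with the poly-A controls.

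Proteins that bind snoRNAs were mostly not called. Of 17 tested genes of snoRNA-protein particles (snoRNPs) and their assembly, 2 were higher and 1 lower, with a median of 0.08, against the same 10.4% and 41.1% of all genes. Fbl, the box C/D methyltransferase fibrillarin, read by a probe set whose suffix s marks transcripts of several genes, averaged 10.63 ± 0.05 on the IP arrays and 9.41 ± 0.28 on the unbound arrays (SD, n = 3 each) and rose by 1.22 (limma, adjusted p = 5.33e-04). Nop10, a box H/ACA core protein, rose by 1.15 (limma, adjusted p = 0.00191), a call lost under quantile normalisation (0.81), and Naf1, an H/ACA assembly factor, fell by 1.32 (limma, adjusted p = 5.78e-04). Dkc1, the H/ACA pseudouridine synthase, and Nop56, a box C/D core protein, were at 0.03 and -0.07. Centred on that same median 10 were higher and 0 lower, and with the poly-A controls 0 and 17, Fbl (-1.14) and Nop10 (-1.21) included.

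Of 9 tested genes of nonsense-mediated decay and the exon junction complex, 0 were called higher by limma and 3 lower, with a median of -0.58. Over all genes tested, 10.4% were higher and 41.1% lower, with a median of -0.65, so these counts are near the background. The only tested members above 0 were Rbm8a, an exon junction protein at 0.92 (limma, adjusted p = 5.62e-05, under 2-fold), and Upf1, the central helicase, at 0.05 (adjusted p = 0.778). Smg1, the kinase of Upf1, was below the detection limit on all IP arrays and at least 16.6-fold lower. Since Smg1 passed the filter only through the unbound arrays, its direction was fixed in advance. Upf2 fell by 1.99 (limma, adjusted p = 4.75e-05), a call lost with arrays centred on their overall median (-0.96). Nbas fell by 1.06 (limma, adjusted p = 5.33e-05). Its unbound arrays all read 7.89 (SD 0.00), so little replicate spread stands behind that p-value. The call of Nbas was lost without scaling (-0.82), with the quantile and the 2 median scalings, and when IP replicate 3 was left out. With quantile normalisation 3 of 10 tested genes of this list were higher and 2 lower.

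Long noncoding RNAs listed as kept in the nucleus are set beside the hosts as noncoding transcripts of another kind. Where each of them lies in the cell was not measured here, and not all need be confined to the nucleus. Of 12 on the array 8 were tested, 0 were called higher by limma and 5 lower, with a median of -3.90, against 10.4% higher and 41.1% lower of all genes tested. Neat1, the scaffold of nuclear paraspeckles, read 6.59, 6.08 and 4.97 in IP and 10.93, 10.46 and 10.45 in unbound RNA, and fell by 4.73 (limma, adjusted p = 1.20e-04). Sox2ot was below the detection limit on all IP arrays and at least 19.1-fold lower, a direction that the filter fixed in advance. Meg3 fell by 4.42 (limma, adjusted p = 2.84e-05). Malat1 and Miat were the other lower genes, and Tug1 was the least changed, at -0.11 (adjusted p = 0.401). By their tested brightest probe sets, no gene of this list lay above 0. All 8 hosts did, but they were selected on this contrast, so their sign cannot be set against that of this list. The difference between the lists was not tested.

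**Figure D4:**
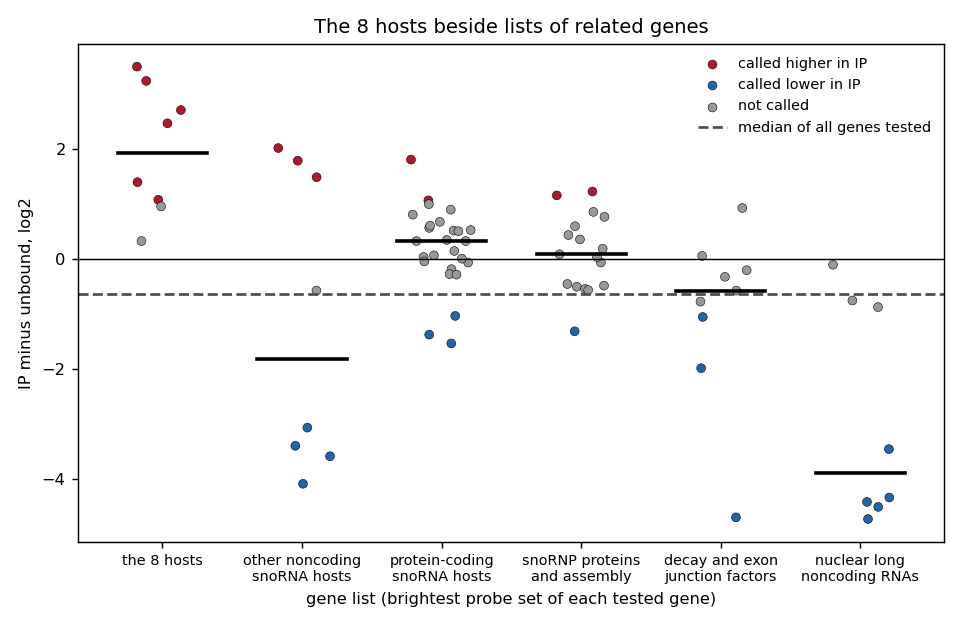
IP minus unbound log2 difference of each tested gene by its brightest probe set (points, coloured by call), for the 8 hosts and 5 lists of related genes, with each median as a bar and the median of all genes tested, -0.65, as a dashed line. The hosts have a median of 1.93, protein-coding hosts 0.32, and nuclear long noncoding RNAs -3.90, while other noncoding hosts split into genes at 1.48 or more and genes at -0.58 or less.

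The array pattern nearest to the mean of the 8 hosts was sought over all 6 arrays, with each gene centred on its own mean and likeness taken as the root mean square difference. The nearest 5 of 10572 genes were Cebpzos (0.0608), Maff (0.0672), Ncald (0.0748), Trappc2l (0.0749) and Znrf1 (0.0750). Cebpzos is named for its place opposite Cebpz, Maff is a small Maf transcription factor, Ncald a neuronal calcium sensor, Trappc2l a subunit of a vesicle tethering complex and Znrf1 a ubiquitin ligase. Cebpzos read 11.46, 11.63 and 11.64 in IP and 9.63, 9.60 and 9.50 in unbound RNA. Maff was below the detection limit in unbound RNA, and another probe set of Znrf1 had the opposite sign. The likeness is loose: 944 genes were within 0.5 of the mean pattern, while the hosts themselves were 0.286 (Snhg6) to 0.858 (Snhg1) from it.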

How the data were processed

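The 3 IP and 3 unbound arrays are biological replicates per the labels. The authors deposited 45101 log2 values per array, made with GCRMA within each group, per the submitters' processing notes and the series design text. Its version: not given in the sources used here. No label states the log2 scale, which follows from the range of the deposited values. Normalising the groups apart leaves their relative level open, and 22.1% of tested probe sets have 1 value on all IP arrays, against 0.79% on all unbound arrays, which narrows the IP spread. Arrays give no depth, and their number limits the precision.

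As the series design recommends, IP arrays were shifted by the mean difference over 18 biotin controls. All non-control probe sets with at least 3 of 6 arrays at log2 5 were fitted with limma 3.58.1 (R 4.3.3), with group as the only term and two-sided p-values adjusted by Benjamini-Hochberg. A probe set dim throughout 1 group could pass only through all arrays of the other, which fixes its direction. Folds given as at least a value count each dim array at no less than 5. The fit was tested on simulated data in which only a small share of probe sets changed and no probe set had identical values. These arrays differ in both respects, so that test does not cover them. Symbols came from the platform annotation (34958 probe sets with 1 symbol, 932 with several), and the other lists were read by each gene's brightest probe set. Genes named from them were the up to 3 largest called changes, or the 2 largest changes where none was called, plus Slc6a4, Tph2 and the 5 genes nearest in pattern. Outside this rule, Snhg5, Snhg10, Snhg16, Snhg18, Dancr, Snhg3, Snhg17, Rpl4, Ipo7, Dkc1, Nop56, Rbm8a, Upf1, Malat1, Miat, Tug1 and the dim glial markers were named after their values were seen.

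Each unbound label names its IP replicate, so equal numbers share mice. Deviations from the group means correlated at 0.287, 0.197 and 0.118 within pairs, and at 0.204 between IP replicate 3 and unbound replicate 2. The members, lists and tests were chosen with earlier results of these data known. Alternatives were 6 other scalings, 2 filters, the brightest probe set of each gene, removal of identical values, a replicate block and leaving out each array. Values of probe sets with several symbols stand apart at the end.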

Additional observations from a re-analysis of the deposited data

Results flagged for a closer look

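The probe set 1447896_s_at is annotated to both Snora24 and its host Snhg8 and was not among the host probe sets for that reason. It read 14.46, 14.72 and 14.70 in IP and 14.33, 14.03 and 14.16 in unbound RNA. All IP arrays lay above all unbound arrays, by 0.46 on average on the log2 scale. The probe set was read on the same arrays and counted among all probe sets tested, but in no host count. Its difference stayed under 2-fold and was smaller than the 1.07 of the Snhg8 probe set 1435524_at, so the place of Snhg8 among the hosts also depends on the probe set.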

How the results depend on the processing

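The scaling between groups moved the results most. The median difference of the host probe sets, 1.18 in the report, was 1.42 without scaling, 1.45 under quantile normalisation, 2.21 when arrays were centred on their overall median, 1.93 when centred on the median of expressed probe sets and -1.18 with the poly-A controls. It was 1.93 over brightest probe sets and 1.57 without identical values. Over all probe sets, 4715 were higher and 4342 lower under quantile normalisation (47.9% of calls lower, against 80.3%), 6412 and 4316 with the overall median (40.2%), 4896 and 5180 with the expressed median (51.4%), and 72 and 16958 with the poly-A controls (99.6%). With the filter at log2 7, 5082 were lower, and with brightest probe sets only, 1104 were higher and 4354 lower, since fewer probe sets were then tested. The poly-A controls left 1 host probe set higher and 5 lower. Lower host probe sets numbered 2 without a filter, and 0 with the filter at log2 7 or with brightest probe sets only, as Gas5 1436222_at was then left out. With the poly-A controls the sign turned for Snhg1 (-1.18, -0.62 and -2.04), Snhg6 (-0.96), Snhg8 (-1.29), Gas5 (-1.41 and -0.51), Fbl (-1.14), Nop10 (-1.21), Rpl37 (-0.55), Trappc2l (-0.46), Ncald (-0.51), Maff (-0.31), Znrf1 (-0.40) and Cebpzos (-0.36). Quantile normalisation left Snhg8 (0.93) and Nop10 (0.81) uncalled, the overall median left Upf2 (-0.96) uncalled, and the calls of Wdr43, Cwf19l1, Naf1 and Nbas were lost under it and under both median scalings. Protein-coding hosts numbered 6 higher without scaling, 0 lower under quantile normalisation, 19 higher and 0 lower with the overall median, 15 and 0 with the expressed median, and 0 and 25 with the poly-A controls. In the same order of settings from quantile normalisation on, snoRNP genes numbered 4 higher and 0 lower, 10 and 0, 7 and 0, and 0 and 17. Decay factors numbered 1 higher without scaling, 3 under quantile normalisation, 2 higher and 1 lower with the overall median, 1 higher with the expressed median, and 9 lower with the poly-A controls. Other noncoding hosts numbered 0 higher with the poly-A controls, and nuclear RNAs 8 lower with those controls and without a filter. Beyond the settings' own construction, the cause of these changes was not tested. Leaving out each array gave a host median of 1.15 to 1.25, 8 to 9 higher and 1 lower host probe sets, and 1937 to 2008 higher and 7818 to 8074 lower probe sets over all. For these the filter was kept on all 6 arrays, a choice made after the counts were seen, because on 5 arrays it drops probe sets bright only in the group that lost an array. With the replicate pairs as a block, 1978 were higher and 8054 lower, and no call of a host or named gene changed. Signal near the detection limit leaves Snhg7 in unbound RNA and the dim probe sets of Gas5 and Snhg1 with little room to measure a fold.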

Other observations

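A second probe set shared by a snoRNA and its host, 1455904_at, is annotated to Snord47 and Gas5. It read 2.00 on all 3 IP arrays, below the detection limit, and 6.93, 6.28 and 5.71 on the unbound arrays, at least 2.47-fold lower in IP against the limit. Its values stand beside those of Gas5 1436222_at, which lay between 1.99 and 2.03 in IP, against 6.05 to 6.62 in unbound RNA. Gas5 1449410_a_at differed the other way, with 12.54 to 12.79 in IP, against 10.77 to 10.94 in unbound RNA.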
